A study of Homo sapiens with 24 samples.

Results

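Small nucleolar RNA (snoRNA) host transcripts are spliced RNAs whose introns carry snoRNAs. The 10 host transcripts described here, SNHG1, SNHG5, SNHG6, SNHG8, SNHG12, SNHG15, SNHG16, SNHG29, GAS5 and ZFAS1, were taken by name from both count tables, out of 57992 genes in all, and each had 1 row in each table. All 10 are annotated as long non-coding RNAs. Their rows were read in 24 libraries from K562, an established human erythroleukaemic line grown from a chronic myelogenous leukaemia. The cells carried a CRISPR interference system that doxycycline at 50 ng/ml turns on, with either sgDDX3, a guide against the RNA helicase gene DDX3X, or sgGal4, the control guide. Both guides were sampled at day 0, day 3 and day 14, with 2 libraries of ribosome footprints and 2 of cytosolic RNA for each guide and day, which makes 12 libraries per assay. Both guides shared the repressor system and the same doxycycline entry in the labels, which do not say whether the day 0 cells had received the drug or whether sgDDX3 cells came from 1 clone or several. The labels do not say either that the replicates were separate cultures, so the p-values rest on the variation among these libraries alone, and that variation could be technical. The comparisons ask what differs between the guides at each of the 3 days and over time.

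In a host gene the snoRNA is cut out of an intron and goes to the nucleolus, where most snoRNAs guide methylation or pseudouridylation of ribosomal RNA. The spliced exons leave for the cytoplasm as an RNA with only short open reading frames. Ribosomes can load on such frames, and stop codons far from the end of the RNA make several hosts, GAS5 among the best known, substrates of nonsense-mediated decay. Many host genes are also known to start at a C followed by pyrimidines, the start of the terminal oligopyrimidine class that includes ribosomal protein genes. Because these RNAs are non-coding by annotation, footprints relative to RNA need not measure protein synthesis on them.

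The start sites of 8 of the 10 hosts were read from RefSeq promoters of GRCh38.p14, since a shared start sequence is the feature this gene class is best known for. Each window below runs 5′ to 3′ on the gene's own strand from 35 bases before the start to 15 bases from it. Capitals mark TATAA found on that strand between 40 and 20 bases before the start, and a run of at least 5 pyrimidines that begins with C within 5 bases of the start and does not follow another pyrimidine, a condition not applied at the first base searched. SNHG15 and SNHG6 are named only.
SNHG1, chr11:62855871-62855920, minus strand: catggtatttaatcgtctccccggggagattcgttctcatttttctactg
SNHG5, chr6:85678719-85678768, minus strand: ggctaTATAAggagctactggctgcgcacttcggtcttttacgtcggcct
SNHG8, chr4:118278727-118278776, plus strand: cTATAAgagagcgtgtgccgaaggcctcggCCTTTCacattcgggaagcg
SNHG12, chr1:28581859-28581908, minus strand: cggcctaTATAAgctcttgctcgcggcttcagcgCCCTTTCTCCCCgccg
SNHG16, chr17:76557729-76557778, plus strand: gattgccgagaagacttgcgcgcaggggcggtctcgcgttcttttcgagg
SNHG29, chr17:16438952-16439001, plus strand: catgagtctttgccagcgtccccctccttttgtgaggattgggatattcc
GAS5, chr1:173869031-173869080, minus strand: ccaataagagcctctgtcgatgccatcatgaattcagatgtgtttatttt
ZFAS1, chr20:49278607-49278656, plus strand: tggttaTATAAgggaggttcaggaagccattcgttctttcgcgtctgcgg
SNHG5, SNHG8, SNHG12 and ZFAS1, 4 of the 8, had TATAA in that interval, against 4.12% of 27305 promoters of all genes (4.85% when either strand counted). SNHG8 and SNHG12 had the marked pyrimidine run as well, which 16.81% of all promoters had. Among other snoRNA hosts, TATAA was found in 12.5% of 16 non-coding and 16% of 25 protein-coding genes. The marked run was found in 18.75% and 32% of them. Whatever base came before the C, a count added after these windows were seen, 5 of the 8 hosts shown had such a run, against 21.05% of all promoters. The added hosts were SNHG5 and ZFAS1, whose runs of 5 follow a T and begin at the start base itself, and SNHG16, whose run also follows a T. A match is a run of letters and not a shown binding site, and no match says only that these letters were not in the window. For SNHG12 and ZFAS1 the start used lies inside the annotated span of the gene, which also covers longer transcripts.

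Depth ran from 10266619 to 43256563 counts in RNA and from 6223963 to 15240512 in footprints. DDX3X RNA was at 174 to 214 CPM (counts per 1000000 counts of the library, after trimmed-mean scaling) in the 6 sgGal4 libraries, with both day 0 libraries (214 and 203 CPM) at the top of that range. With sgDDX3 it was at 175 and 185 CPM at day 0, below both of these without passing (−0.21 ± 0.10, adjusted p = 0.999). It was at 38.9 and 33.6 CPM at day 3 and at 134 and 101 CPM at day 14, lower than sgGal4 by the test at both days (−2.29 and −0.72). Of the erythroid markers, GATA1, TAL1, KLF1, HBG2 and HBZ were at 24.2 CPM or more in all RNA libraries, HBG1 at up to 0.289 CPM and HBE1 at up to 3.996 CPM. Defining markers of other cells were at or near 0 (MS4A1 and COL1A2 at 0 in all 12 RNA libraries, CD2 and CDH1 at 0 in 11), while EPCAM (23.2 to 31.9 CPM) and KRT8 (40.3 to 71.0 CPM) were present. In bulk RNA, fewer cells with a transcript and less of it per cell cannot be told apart.

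The 10 hosts differed widely in how many footprints they carried for their RNA. SNHG1 stood highest and ZFAS1 and SNHG16 lowest, in every guide and day, though not apart from SNHG5 with sgDDX3 at day 3. In the sgGal4 cells at day 0 the ratio of footprint CPM to RNA CPM was 2.10 for SNHG1, which placed it at percentile 86.7 of the 14850 genes with a ratio and percentile 93.8 of 681 long non-coding RNAs among them. SNHG6 followed at 1.14 and SNHG15 at 1.09, close to each other: their ranges over the 4 ways to pair a footprint with an RNA library overlapped (1.11 to 1.17 and 1.04 to 1.15). GAS5 (0.685), SNHG8 (0.669) and SNHG12 (0.594) lay near the median of long non-coding RNAs, 0.634, and the range of GAS5 (0.632 to 0.739) overlapped that of SNHG8 (0.606 to 0.738). SNHG5 (0.254) and SNHG29 (0.250) overlapped in their ranges as well, and SNHG16 (0.164) and ZFAS1 (0.146) were at percentiles 2.53 and 2.05. The median over all these genes was 0.811 and that of protein-coding genes 0.762. The scale between the assays is arbitrary, so only ranks and ratios of ratios carry meaning.

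The order was much the same in the other groups. With sgDDX3 at day 3, SNHG5 (0.207), SNHG16 (0.203) and ZFAS1 (0.202) were close, and their ranges over the 4 pairings overlapped. Across all 6 groups of guide and day, ZFAS1 stayed between 0.126 and 0.202, SNHG16 between 0.158 and 0.203, SNHG5 between 0.207 and 0.279 and SNHG29 between 0.250 and 0.366. SNHG12 lay between 0.594 and 0.738, GAS5 between 0.608 and 0.948, SNHG8 between 0.669 and 0.902, SNHG15 between 1.00 and 1.40 and SNHG6 between 1.14 and 1.44. SNHG1 had the widest span in fold, from 2.10 to 4.13. Its 3 sgGal4 ratios (2.10, 2.26 and 2.61) all lay below its 3 sgDDX3 ratios (3.58, 4.13 and 3.66).

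**Figure D1:**
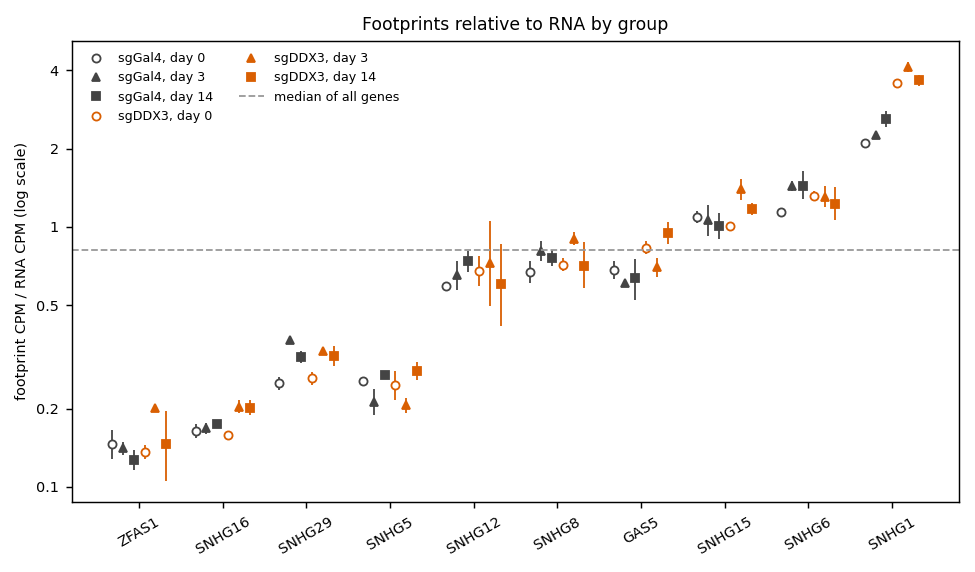
Footprint CPM divided by RNA CPM (log scale) for the 10 host transcripts in the 6 groups of guide and day; symbols are ratios of the group means, vertical lines the range over the 4 pairings of libraries, and the dashed line the median of all genes over the groups. SNHG1 runs from 2.10 to 4.13 with every sgDDX3 group above every sgGal4 group, and ZFAS1 and SNHG16 stay at or under 0.203.

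SNHG1 was the host with more footprints in the sgDDX3 cells from the outset. It lies on chromosome 11 (62851978 to 62855885 of GRCh38.p14, minus strand), and its introns hold 8 snoRNAs, among them SNORD22 and SNORD25. At day 0 its footprints were at 384 and 399 CPM with sgGal4 and at 691 and 678 CPM with sgDDX3. The guides did not overlap at that day, nor at the later days. At day 3 the sgGal4 libraries held 422 and 424 CPM and the sgDDX3 libraries 657 and 627 CPM. At day 14 the values were 447 and 496 CPM against 599.7 and 619.7 CPM.

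The footprint difference of SNHG1, sgDDX3 over sgGal4, was 0.81 ± 0.09 on the log2 scale at day 0 (SE; edgeR quasi-likelihood test with Benjamini-Hochberg adjustment, adjusted p = 0.00582). It was 0.60 ± 0.09 at day 3 (adjusted p = 0.00303) and 0.37 ± 0.09 at day 14 (adjusted p = 0.0324). SNHG1 was the 1 host of 10 that passed in footprints at day 0, in a comparison where 0.0101% of 19780 genes passed. Against day 0 the difference stood at −0.21 ± 0.12 by day 3 and at −0.44 ± 0.12 by day 14, neither past the threshold (adjusted p = 0.575 and 0.238). The day 0 call was lost without any of the 4 libraries in turn, while its value stayed at 0.78 to 0.84. Each such run leaves 1 library in a group, so a call can be lost with little change in the value. The day 3 call was lost without sgGal4 replicate 1 (0.57), and the day 14 call without sgGal4 replicate 1 (0.31), sgDDX3 replicate 1 (0.39) or sgDDX3 replicate 2 (0.34).

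The RNA of SNHG1 did not share that difference. At day 0 it was at 186 and 188 CPM with sgGal4 and at 189 and 193 CPM with sgDDX3, a log2 difference of 0.03 ± 0.07 (adjusted p = 0.999). At day 3 the sgGal4 libraries held 193 and 182 CPM and the sgDDX3 libraries 159 and 152 CPM. The RNA was then lower with sgDDX3, by −0.27 ± 0.07 (adjusted p = 0.0106), a call that was lost without sgGal4 replicate 1 (−0.22) or sgDDX3 replicate 2 (−0.23). At day 14 it was at 177 and 184 CPM against 171 and 161 CPM, lower in both sgDDX3 libraries but not past the threshold (−0.12 ± 0.07, adjusted p = 0.291).

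Footprints relative to RNA, taken from the guide-by-assay interaction, were higher for SNHG1 at all 3 days. The log2 difference was 0.77 ± 0.11 at day 0 (adjusted p = 0.00179), 0.86 ± 0.11 at day 3 (adjusted p = 5.4e-06) and 0.50 ± 0.11 at day 14 (adjusted p = 0.0119). At day 0, 0.00673% of 14853 genes passed this test, at day 3 5.29% and at day 14 1.73%. SNHG1 was the 1 host of 10 that passed at each of these days. The day 3 call held without any of the 8 libraries in turn. The day 0 call was lost without sgDDX3 RNA replicate 1 (0.75), and the day 14 call without sgGal4 RNA replicate 2 (0.47) or sgGal4 footprint replicate 1 (0.41).

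**Figure D2:**
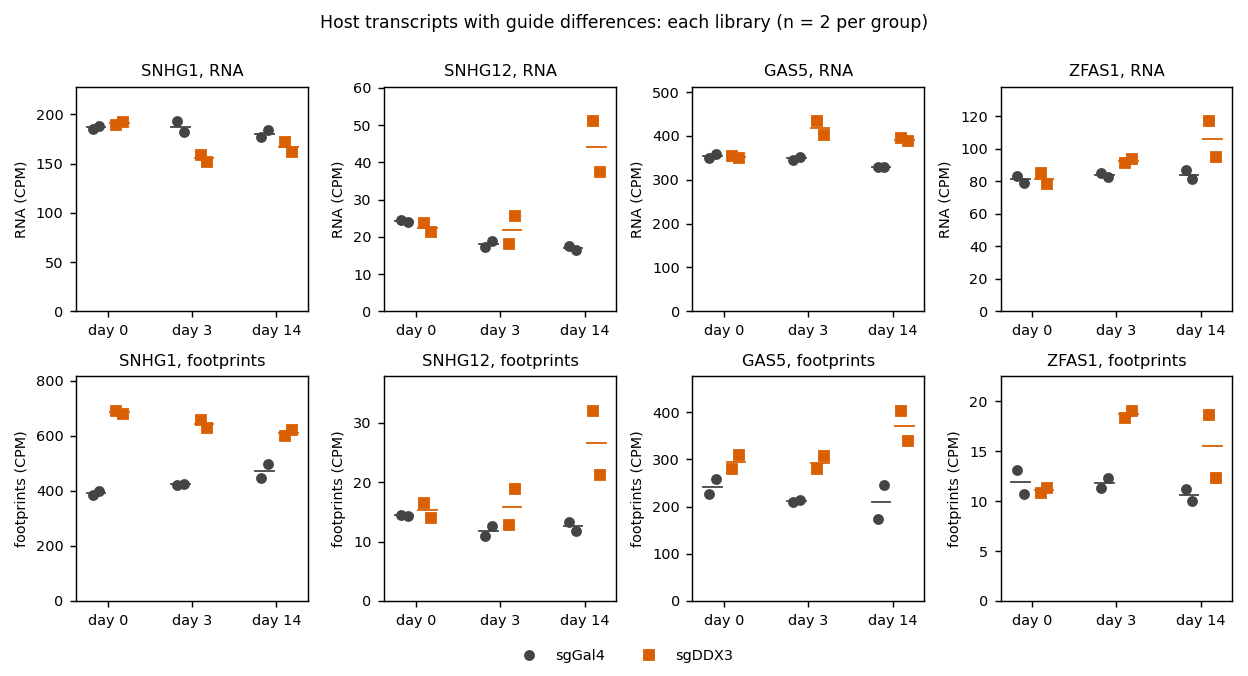
CPM in each library for SNHG1, SNHG12, GAS5 and ZFAS1, RNA in the upper row and footprints in the lower row, by day; dots are sgGal4 and squares sgDDX3 libraries, short lines group means, and all axes start at 0. SNHG1 footprints lie at 384 to 496 CPM with sgGal4 and 599.7 to 691 CPM with sgDDX3, and SNHG12 RNA with sgDDX3 at day 14 lies at 51.1 and 37.4 CPM, above the other 10 libraries.

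SNHG12 was the host with the largest difference in RNA, at day 14. It lies on chromosome 1 (28578538 to 28582983, minus strand) and holds SNORD99, SNORA61, SNORA44 and SNORA16A. Its RNA was at 24.6 and 24.01 CPM with sgGal4 and 23.6 and 21.3 CPM with sgDDX3 at day 0. At day 3 it was at 17.1 and 19.0 CPM with sgGal4 and 17.9 and 25.7 CPM with sgDDX3, so the guides overlapped. At day 14 the sgGal4 libraries held 17.6 and 16.5 CPM and the sgDDX3 libraries 51.1 and 37.4 CPM. Both late sgDDX3 libraries were above every other RNA library, with replicate 1 the higher of the pair.

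The day 14 difference of SNHG12 RNA was 1.39 ± 0.15 on the log2 scale (2.60-fold by group means, adjusted p = 1.8e-06). The difference at day 3 was 0.24 ± 0.15 (adjusted p = 0.327), but it passed without sgDDX3 replicate 1 of that day (0.53, adjusted p = 0.0364), and it was at day 0 −0.11 ± 0.14 (adjusted p = 0.999). The guide difference grew by 1.50 ± 0.20 from its day 0 value to day 14 (adjusted p = 0.000234), and SNHG12 was the 1 host of 10 that passed this test, against 4.46% of all 18287 genes. Within the guides, its RNA fell from day 0 to day 14 with sgGal4 (−0.53 ± 0.15, adjusted p = 0.0199) and rose with sgDDX3 (0.97 ± 0.14, adjusted p = 3.11e-05). The fall with sgGal4 was lost without any of its 4 libraries in turn (−0.57 to −0.47), while the rise with sgDDX3, the day 14 difference and the growth of the difference held without each.

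Footprints on SNHG12 moved with its RNA. They were at 14.5 and 14.4 CPM with sgGal4 and 16.5 and 14.0 CPM with sgDDX3 at day 0, and at 10.9 and 12.7 against 12.8 and 18.9 CPM at day 3. At day 14 they were at 13.3 and 11.8 CPM with sgGal4 and at 32.0 and 21.2 CPM with sgDDX3, with no overlap. The day 14 difference was 1.09 ± 0.21 (adjusted p = 0.0116), and that of footprints relative to RNA was −0.28 ± 0.27 (adjusted p = 0.741). These rows held few reads, 76 to 346 counts per footprint library. The footprint call was lost without sgGal4 replicate 1 (1.20), sgGal4 replicate 2 (0.99) or sgDDX3 replicate 1 (0.74), and the growth of the footprint difference since day 0 was 1.02 ± 0.29 (adjusted p = 0.246).

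GAS5, a transcript that accumulates in growth arrest, was modestly higher with sgDDX3 at both later days. It lies on chromosome 1 (173863901 to 173869045, minus strand) and holds 11 snoRNAs. At day 0 its RNA was at 350.2 and 358 CPM with sgGal4 and 355 and 350.4 CPM with sgDDX3, within each other's range. At day 3 it was at 346 and 353 CPM against 434 and 403 CPM, and at day 14 at 330.0 and 328 CPM against 396 and 388 CPM, with no overlap at either day. The RNA difference was 0.26 ± 0.06 at day 3 (adjusted p = 0.0072) and 0.25 ± 0.06 at day 14 (adjusted p = 0.0102). The day 3 call was lost without sgGal4 replicate 1 (0.25) or sgDDX3 replicate 1 (0.21), and the day 14 call without either sgGal4 library (0.26 and 0.25).

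Footprints on GAS5 differed more than its RNA did at day 14. They were at 226 and 259 CPM with sgGal4 and 279 and 309 CPM with sgDDX3 at day 0. At day 3 they were at 209.7 and 215 CPM against 279.6 and 307 CPM. At day 14 they were at 173 and 246 CPM with sgGal4, a wide pair, and at 403 and 339.6 CPM with sgDDX3. The sgDDX3 libraries were above the sgGal4 libraries at each day, day 0 included. The difference was 0.28 ± 0.14 at day 0 (adjusted p = 1.00), 0.47 ± 0.14 at day 3 (adjusted p = 0.0947) and 0.82 ± 0.14 at day 14 (adjusted p = 0.00808). The day 14 call was lost without sgGal4 replicate 1 (0.60) or sgDDX3 replicate 1 (0.69). Relative to RNA the day 14 difference was 0.58 ± 0.16 and did not pass (adjusted p = 0.0715). It passed in DESeq2, without the low-count filter and with the replicate block. Without each of the 8 libraries in turn it lay between 0.34 and 0.87.

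ZFAS1, which starts beside ZNFX1 on chromosome 20 (49278178 to 49289260, plus strand), had its RNA difference at day 14. Its RNA was at 83.5 and 79.2 CPM with sgGal4 and 84.9 and 78.2 CPM with sgDDX3 at day 0, and at 85.2 and 82.6 against 91.6 and 93.8 CPM at day 3. At day 14 it was at 86.8 and 81.5 CPM against 117 and 95.1 CPM, a difference of 0.34 ± 0.09 (adjusted p = 0.0117). That call was lost without sgGal4 replicate 2 (0.29) or sgDDX3 replicate 1 (0.19), the higher of the late sgDDX3 libraries. Its footprints were few, 71 to 201 counts per library. They were at 11.3 and 12.3 CPM against 18.3 and 19.1 CPM at day 3, and at 11.2 and 10.0 CPM against 18.6 and 12.3 CPM at day 14. Neither difference passed (0.67 ± 0.19, adjusted p = 0.0712, and 0.55 ± 0.19, adjusted p = 0.136). The day 14 value ranged from 0.20 to 0.80 without each library in turn, and passed without sgDDX3 replicate 2 (0.80, adjusted p = 0.0371).

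In the footprint libraries of day 14, a pair of snoRNAs inside ZFAS1 were higher with sgDDX3, while ZFAS1 itself did not pass. Of the 37 snoRNAs that RefSeq places inside the 10 hosts, 21 had 1 row in the tables, and 16 of these were at 0 in all 24 libraries. Another 5 had several rows and were not read, SNORD22, SNORD27 and SNORD30 of SNHG1 among them, and 11 had no row. Of the 11 in GAS5, only 1 was read. Among all SNORD and SNORA rows, 52.85% of 526 were at 0 throughout, so the tables hold little of this class. Of the 5 with a single row and reads, SNORD12B and SNORD12C, box C/D snoRNAs of ZFAS1, were the most abundant in the footprint libraries. SNORD12 of the same host was among those at 0. SNORD12B (49280313 to 49280415) was at 44.1 and 45.6 CPM of the total count with sgGal4 and 42.1 and 48.3 CPM with sgDDX3 at day 0. At day 3 it was at 32.9 and 23.6 CPM against 34.9 and 35.7 CPM. At day 14 it was at 19.4 and 36.3 CPM with sgGal4 and at 151 and 143 CPM with sgDDX3, above every other footprint library.

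The day 14 difference of SNORD12B in footprint libraries was 2.42 ± 0.20 on the log2 scale (adjusted p = 5.3e-05), and it grew by 2.37 ± 0.28 since day 0 (adjusted p = 0.00422). The growth lost its call without sgDDX3 footprint replicate 2 of day 0 (2.46). In the RNA libraries SNORD12B held 7 to 59 counts and did not pass at day 14 (−0.37 ± 0.41, adjusted p = 0.610), and relative to RNA the difference was 2.85 ± 0.50 (adjusted p = 0.00198). SNORD12C (49278945 to 49279023) was at 33.3 and 43.8 CPM with sgGal4 and 87.0 and 87.8 CPM with sgDDX3 in the day 14 footprint libraries. Its difference was 1.20 ± 0.15 (adjusted p = 0.000943), and it had been 0.35 ± 0.15 at day 0 (adjusted p = 1.00). The growth since day 0 was 0.85 ± 0.21 and did not pass (adjusted p = 0.166). A snoRNA in a footprint library is an RNA fragment that came through RNase I and the sizing column, and need not be on a ribosome. The other snoRNAs with a single row and reads were SNORD1B of SNHG16 (5.60 to 21.9 CPM in footprint libraries), SNORD99 of SNHG12 (0.890 to 2.33 CPM) and SNORD79 of GAS5 (5 counts over all RNA libraries). SNORD1B and SNORD99 were tested in footprints alone and did not pass in any comparison there, and SNORD79 was not tested.

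**Figure D3:**
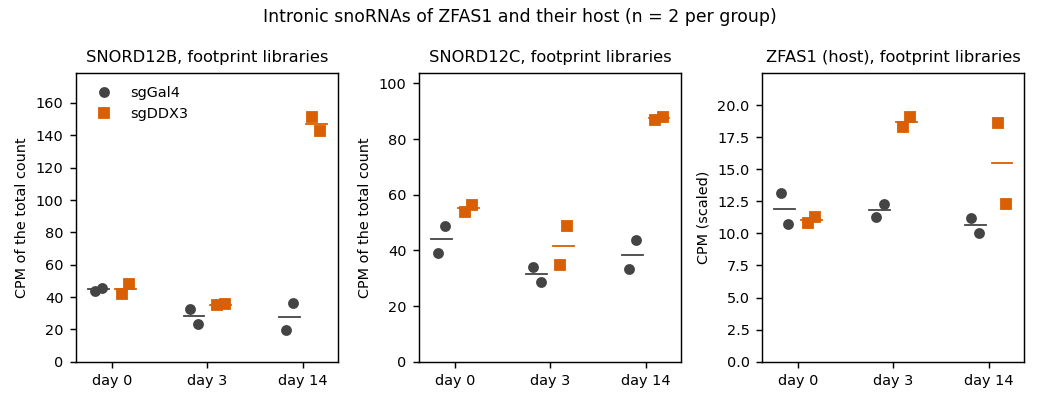
CPM in each footprint library by day for SNORD12B and SNORD12C, as CPM of the total count, and for their host ZFAS1, as scaled CPM; dots are sgGal4, squares sgDDX3, lines group means. SNORD12B lies at 151 and 143 CPM in the 2 sgDDX3 libraries of day 14 and at or under 48.3 CPM in the other 10.

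Of the remaining hosts, SNHG15 and SNHG16 each passed in 1 comparison of the guides. SNHG15, which holds SNORA9 on chromosome 7 (44983023 to 44986696), had footprints of 51.9 and 60.8 CPM with sgGal4 and 89.5 and 77.4 CPM with sgDDX3 at day 3. That difference was 0.57 ± 0.12 (adjusted p = 0.0197) and was lost without sgGal4 replicate 1 (0.43), sgGal4 replicate 2 (0.67) or sgDDX3 replicate 1 (0.46). Its RNA was higher with sgDDX3 already at day 0, at 67.3 and 68.6 CPM against 57.8 and 60.9 CPM, without passing (0.20 ± 0.08, adjusted p = 0.999). SNHG16, host of the SNORD1 snoRNAs on chromosome 17 (76557764 to 76565348, plus strand), was the 1 host whose RNA passed as lower with sgDDX3 at day 14. Its RNA was lower with sgDDX3 already at day 0 (409 and 423 against 388 and 395 CPM) and at day 3 (359 and 378 against 353 and 329.5 CPM), without passing. At day 14 it was at 342 and 338 CPM against 269 and 307 CPM, a difference of −0.24 ± 0.07 (adjusted p = 0.0273). The call was lost without sgGal4 replicate 1 (−0.22), sgGal4 replicate 2 (−0.25) or sgDDX3 replicate 1 (−0.14), and its footprints at that day were level, at 60.4 and 57.9 CPM against 58.1 and 58.2 CPM.

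SNHG5, SNHG6, SNHG8 and SNHG29 passed in no comparison of the guides. SNHG5, which holds SNORD50A and SNORD50B on chromosome 6 (85677007 to 85678733, minus strand), had RNA of 338 and 365 CPM with sgGal4 and 399.9 and 396 CPM with sgDDX3 at day 3 (0.18 ± 0.07, adjusted p = 0.0691). SNHG29, host of SNORD49A, SNORD49B and SNORD65 on chromosome 17 (16438987 to 16470648, plus strand), was at 398 and 399.7 against 446 and 433 CPM in RNA at day 3 (0.14 ± 0.06, adjusted p = 0.134). SNHG8, host of SNORA24 on chromosome 4 (118278762 to 118279823, plus strand), had footprints of 46.8 and 51.5 against 58.9 and 59.6 CPM at day 3 (0.27 ± 0.11, adjusted p = 0.191). In these assays the sgDDX3 libraries of the 3 hosts lay above the sgGal4 libraries at that day. In the other assay, footprints for SNHG5 and SNHG29 and RNA for SNHG8, the guides overlapped. The share of all genes without overlap was not counted, so these separations are not read as a shared rise. SNHG6, host of SNORD87 on chromosome 8, had RNA between 61.5 and 79.5 CPM and footprints between 81.2 and 104 CPM over all libraries. Its footprints at day 14 were at 104 and 94.8 CPM with sgGal4 and 91.2 and 84.3 CPM with sgDDX3 (−0.18 ± 0.09, adjusted p = 0.341).

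**Figure D4:**
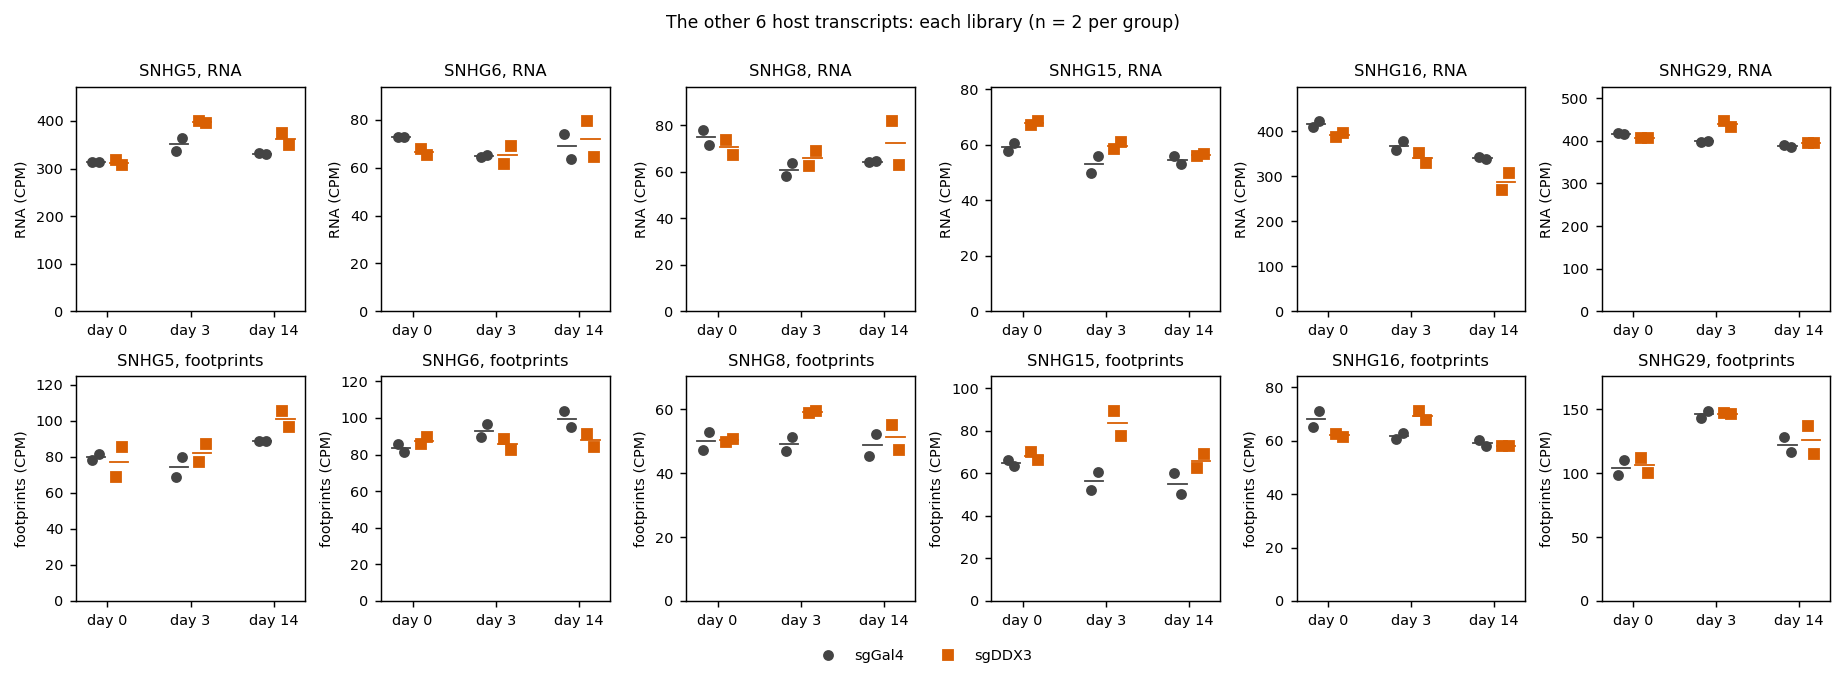
CPM in each library for SNHG5, SNHG6, SNHG8, SNHG15, SNHG16 and SNHG29, RNA above and footprints below, by day; dots are sgGal4, squares sgDDX3, lines group means, and all axes start at 0. The guides lie apart for SNHG15 footprints at day 3 (51.9 and 60.8 against 89.5 and 77.4 CPM) and for SNHG16 RNA at day 14 (342 and 338 against 269 and 307 CPM).

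Counted over the 10 hosts, 0 to 4 passed between the guides at each day in RNA or in footprints. In RNA no host passed at day 0 (0 in DESeq2), where 0.00547% of 18287 genes passed in edgeR. There, 1 host had an unadjusted p under 0.05, against 4.55% of all genes. At day 3, GAS5 was higher and SNHG1 lower, 2 of 10 against 14.1% of all genes. At day 14, SNHG12, GAS5 and ZFAS1 were higher and SNHG16 lower, 4 of 10 against 14.6%. In footprints SNHG1 and SNHG15 were higher at day 3, 2 of 10 against 3.81%, and SNHG1, SNHG12 and GAS5 at day 14, 3 of 10 against 3.40%. The members' median log2 difference in footprints was 0.36 at day 3 and 0.22 at day 14, beside 0.02 and 0.00 over all genes tested. In RNA it was 0.14 and 0.10, beside −0.01 at both days.

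**Figure D5:**
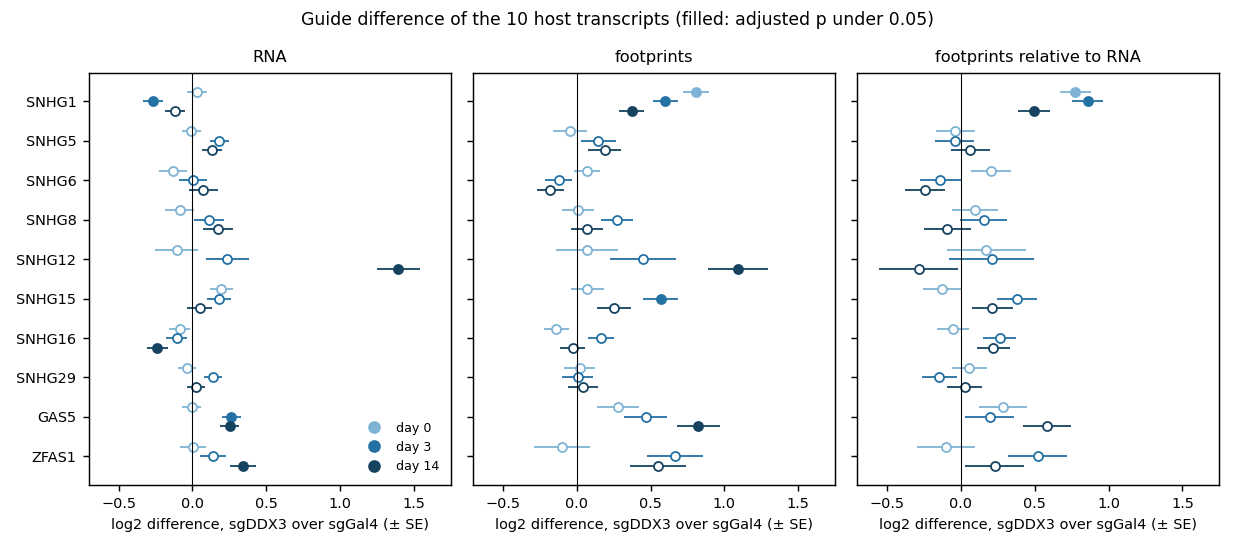
Log2 difference, sgDDX3 over sgGal4, with its SE for the 10 host transcripts in RNA, in footprints and in footprints relative to RNA; shades stand for day 0, day 3 and day 14 and filled symbols for an adjusted p under 0.05. SNHG1 is to the right of 0 at all 3 days in the footprint panels, and SNHG12 stands apart at day 14 in RNA (1.39) and footprints (1.09).

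Against the guides' own day 0, 1 host in RNA and none in footprints had a guide difference that moved. In RNA no host passed at day 3 (0 in DESeq2), where 3.70% of genes did. An unadjusted p under 0.05 was found for 2 hosts, against 16.3% of all genes. In footprints no host passed at day 3 (background 0.121%, 0 in DESeq2) or at day 14 (background 0.106%, 0 in DESeq2). With an unadjusted p under 0.05 there were 3 hosts at day 3, against 11.2% of all genes. At day 14 there were 4, against 9.52%. The values nearest to the threshold were those of GAS5 in RNA, 0.27 ± 0.09 at day 3 (adjusted p = 0.108) and 0.26 ± 0.09 at day 14 (adjusted p = 0.117), and of SNHG1 in RNA at day 3 (−0.30 ± 0.10, adjusted p = 0.0923). ZFAS1 RNA at day 14 was at 0.34 ± 0.12 (adjusted p = 0.142) and passed without sgDDX3 replicate 2 of day 14 (0.47, adjusted p = 0.00658).

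Within the guides, more hosts moved with time in sgDDX3 than in sgGal4, in comparisons where more genes moved as well; the difference between these counts was not tested. With sgGal4, no host passed in RNA from day 0 to day 3 (background 5.68%, 0 in DESeq2). There, 5 hosts had an unadjusted p under 0.05, against 20.6% of all genes. From day 0 to day 14 SNHG12 and SNHG16 fell, 2 of 10 against 16.2%. SNHG16 went from 409 and 423 CPM to 342 and 338 CPM (−0.29 ± 0.07, adjusted p = 0.00749), a call that was lost without day 0 replicate 2 (−0.27), day 14 replicate 1 (−0.31) or day 14 replicate 2 (−0.28). With sgDDX3 it went from 388 and 395 CPM to 269 and 307 CPM (−0.44 ± 0.07, adjusted p = 0.000102).

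With sgDDX3, SNHG5 and GAS5 rose and SNHG1 fell in RNA from day 0 to day 3, 3 of 10 against 20.5% of all genes. SNHG5 rose from 318 and 307 CPM to 399.9 and 396 CPM (0.35 ± 0.07, adjusted p = 0.000599), and without each library in turn it kept its call. GAS5 rose by 0.25 ± 0.06 (adjusted p = 0.00737), which was lost without day 0 replicate 2 (0.24) or day 3 replicate 1 (0.19). SNHG1 fell by 0.29 ± 0.07 (adjusted p = 0.00376) and kept its call. From day 0 to day 14, SNHG12, ZFAS1 and SNHG5 rose and SNHG16, SNHG15 and SNHG1 fell, 6 of 10 against 26.2%. ZFAS1 rose by 0.38 ± 0.09 (adjusted p = 0.00285), lost without day 0 replicate 2 (0.32) or day 14 replicate 1 (0.22). SNHG15 fell by 0.27 ± 0.08 (adjusted p = 0.0159), SNHG1 fell by 0.20 ± 0.07 (adjusted p = 0.0379) and SNHG5 rose by 0.22 ± 0.07 (adjusted p = 0.0185), and each was lost without day 0 replicate 1 (−0.29, −0.21 and 0.24, in that order) or day 0 replicate 2 (−0.26, −0.19 and 0.19). SNHG15 and SNHG5 were lost without day 14 replicate 1 too (−0.26 and 0.17), and SNHG1 without day 14 replicate 2 (−0.16).

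In footprints, SNHG29 rose from day 0 to day 3 with both guides. It went from 98.9 and 109.9 CPM to 143 and 149 CPM with sgGal4 (0.48 ± 0.10, adjusted p = 0.042), the 1 host of 10 that passed against 1.26% of genes. With sgDDX3 it went from 112 and 100.2 CPM to 147 and 146 CPM (0.47 ± 0.11, adjusted p = 0.0172), and ZFAS1 rose as well (0.75 ± 0.19, adjusted p = 0.0306), 2 of 10 against 7.55%. SNHG29 footprints at day 3 lay above those at day 0 in all libraries, while its RNA did not pass in either guide (adjusted p = 0.602 and 0.207). SNHG29 with sgGal4 lost its call without any of its libraries (0.42 to 0.58). With sgDDX3 it did so without day 0 replicate 1 (0.54), day 0 replicate 2 (0.38) or day 3 replicate 1 (0.46). ZFAS1 with sgDDX3 lost its call without any of its libraries (0.72 to 0.78). From day 0 to day 14, no host passed with sgGal4 (background 2.47%, 0 in DESeq2). There, 4 hosts had an unadjusted p under 0.05, against 17.3% of all genes. With sgDDX3 SNHG12 rose (0.82 ± 0.21, adjusted p = 0.0278), 1 of 10 against 7.78%, and this was lost without day 0 replicate 1 (0.93), day 0 replicate 2 (0.69) or day 14 replicate 1 (0.48).

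Genes beside the hosts were read because the strand setting of the counting is not given in the sources used here, so that overlapping genes may share reads. SLC3A2, a subunit of amino acid transporters that starts beside SNHG1 on the other strand, was lower with sgDDX3 in RNA at day 3 (−0.31 ± 0.07, adjusted p = 0.00548) and at day 14 (−0.48 ± 0.07, adjusted p = 0.000106). In footprints it was at 0.11 ± 0.10 at day 0 (adjusted p = 1.00), where SNHG1 was at 0.81. At the later days its footprints were at −0.28 ± 0.10 (day 3, adjusted p = 0.14) and −0.40 ± 0.10 (day 14, adjusted p = 0.0439), where those of SNHG1 were higher with sgDDX3. The day 14 footprint call was lost with the replicate block (−0.39), without sgGal4 replicate 1 (−0.31) and without sgDDX3 replicate 1 (−0.30). The day 3 RNA call of SLC3A2 was lost without sgGal4 replicate 2 (−0.29). ZBTB37, a zinc finger gene that overlaps the start of GAS5, was lower in RNA at day 3 (−0.31 ± 0.10, adjusted p = 0.0407), the direction opposite to GAS5. That call was lost with the replicate block, without sgGal4 replicate 1 (−0.14) and without sgDDX3 replicate 2 (−0.21). TRNAU1AP, which overlaps the end of SNHG12, was at −0.10 ± 0.12 in RNA at day 14 (adjusted p = 0.667), and ZNFX1, beside ZFAS1, at 0.10 ± 0.09 (adjusted p = 0.542). PRSS12, which ends beside SNHG8 on the other strand, was higher in footprints at day 3 (1.69 ± 0.42, adjusted p = 0.0437), at a mean of 2.98 CPM over the footprint libraries. It was lost without sgGal4 replicate 1 (2.60), sgGal4 replicate 2 (1.23) or sgDDX3 replicate 1 (0.96). MCMDC2 at SNHG6, LRRC75A at SNHG29 and GAS5-AS1 at GAS5 were at means of 1.52, 6.71 and 1.79 CPM in RNA and passed in none of the RNA comparisons of the guides.

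Other host genes were compared by lists of known members. Of 16 other non-coding hosts tested in RNA, 3 were higher with sgDDX3 at day 3 and none lower, against 14.1% of all genes called: SNHG7 (0.70 ± 0.11), SNHG3 (0.40 ± 0.09) and DANCR (0.39 ± 0.08). At day 14, SNHG7 (0.67 ± 0.11) and SNHG3 (0.43 ± 0.09) were higher, 2 of 16 against 14.6% of all genes. SNHG7 held its call without each library in turn, whereas DANCR and SNHG3 at day 3 were lost without sgGal4 replicate 1 (0.31 and 0.33) and SNHG3 at day 14 without sgGal4 replicate 2 (0.38). In footprints SNHG17 (0.48 ± 0.12) and DANCR (0.55 ± 0.13) of 14 were higher at day 3 (3.81% of all genes called) and SNHG17 (0.69 ± 0.12) at day 14 (3.40%), the latter lost without sgDDX3 replicate 1 (0.62). The day 3 footprint calls were lost without any of their 4 libraries, at 0.39 to 0.53 for SNHG17 and 0.41 to 0.66 for DANCR. The median of this list in footprints was 0.35 at day 3 and 0.26 at day 14, beside 0.02 and 0.00 over all genes.

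Host genes that also code for proteins did not share that median. Of 33, 3 were higher and 1 lower in RNA at day 3 (14.1% of all genes called), and 4 were higher and 8 lower at day 14 (14.6%). The 12 calls of day 14 became 6 without sgGal4 replicate 1, 5 without sgGal4 replicate 2 and 22 without sgDDX3 replicate 2. At day 14 the translation initiation scaffold EIF4G1 (0.83 ± 0.12) and the nucleolar protein gene NCL (0.44 ± 0.09) were higher, and the elongation factor EEF2 (−0.30 ± 0.06) and the ribosomal protein gene RPL23A (−0.49 ± 0.09) were lower. Their median log2 difference in footprints was −0.03 at day 3 and −0.04 at day 14. In footprints 2 were higher at day 3 (3.81% of all genes called), EIF4G1 (0.96 ± 0.16) and EIF4G2 (0.52 ± 0.09), both lost without sgGal4 replicate 1 (0.86 and 0.44). At day 14, 3 were higher and 1 lower in footprints, against 3.40% of all genes. EIF4G1 (1.16 ± 0.16), NCL (1.01 ± 0.22) and EIF4A2 (0.52 ± 0.12) were higher and RPS20 (−0.44 ± 0.11) lower. Without each library in turn they lay at 1.05 to 1.24, 0.89 to 1.12, 0.42 to 0.59 and −0.60 to −0.28, in that order.

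Genes for the proteins of snoRNA particles and their assembly formed another list. Of 18, 3 were lower in RNA at day 3 (14.1% of all genes called) and 5 at day 14 (14.6%), with none higher. RUVBL2, an ATPase of the assembly machinery, was lower at both days (−0.39 ± 0.08 and −0.37 ± 0.08) and kept its call without each library in turn. The methyltransferase gene FBL (−0.30 ± 0.08) and NOP10 of the pseudouridylation particle (−0.35 ± 0.09) were lower at day 14. FBL lost its call without sgGal4 replicate 1 (−0.24) or sgDDX3 replicate 2 (−0.22), and NOP10 without sgGal4 replicate 2 (−0.31). The 5 calls of day 14 became 2 without sgGal4 replicate 1 or sgGal4 replicate 2.

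Of 16 factors of nonsense-mediated decay, 2 were higher in RNA at day 3 (14.1% of all genes called), and 4 were higher and 1 lower at day 14 (14.6%). These 5 calls became 1 without either sgGal4 library and 2 without sgDDX3 replicate 1. SMG1, the kinase that acts on UPF1, was higher at both days (0.41 ± 0.07 and 0.42 ± 0.07) and kept its call without each library in turn. Of 10 transcripts known as decay targets, 3 were lower at day 3 and 3 at day 14, with none higher, beside the same shares of all genes. GADD45A was lower at day 3 (−0.61 ± 0.10) and ATF4 at day 14 (−0.41 ± 0.07), both held without each library, while GADD45A at day 14 (−0.37 ± 0.10) was lost without sgGal4 replicate 1 (−0.36), sgGal4 replicate 2 (−0.38) or sgDDX3 replicate 2 (−0.18). GAS5, itself known as a decay target, was higher at both days as given above.

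The hosts did not move as 1 group in RNA. Across the 12 RNA libraries each host's log2 level correlated with the mean of the other 9 at r from −0.51 (SNHG16) and −0.44 (SNHG1) to 0.74 (SNHG8). In the 12 footprint libraries r ran from −0.35 (SNHG6) to 0.77 (ZFAS1). SNHG12 had the widest RNA range of the hosts, 1.61 on the log2 scale with SNHG16 next at 0.65, and so weighed most in their mean. Likeness to that mean was read in 9961 genes, and the hosts among them were then left out. The genes most like it over the 12 RNA libraries were CALR (r = 0.97), DIAPH1 (0.95), AKT1 (0.93), BAMBI (0.92) and PDIA4 (0.92). These are descriptions over libraries that share guide and day groups.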

How the data were processed

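Ribosome footprints and cytosolic RNA of K562 cells were read from 2 tables of unnormalised read counts per gene, as deposited by the authors. The submitters' processing notes name cutadapt 3.4, Bowtie2 2.4.1, STAR 2.7.5a and DESeq2 with GRCh38; the counter, annotation and strand setting were not given in the sources used here. Of 58037 rows, 45 pseudoautosomal copies on the Y chromosome were left out. Groups came from the sample labels, with 2 libraries each.

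Each assay was fitted over its 12 libraries with edgeR 4.0.16 (R 4.3.3, limma 3.58.1), using filterByExpr with a minimum count of 10, trimmed-mean scaling and the quasi-likelihood test. Footprints relative to RNA were the interaction of guide and assay over all 24 libraries. P-values were adjusted by Benjamini-Hochberg over all genes tested, with a threshold of 0.05, and the SE is the log2 difference divided by the square root of F. Common biological variation was 6.13% in RNA and 9.99% in footprints. The procedure was also run on counts simulated as independent libraries with its own fitted dispersions. Such a run cannot show whether the replicates here were technical. Alternatives were DESeq2 1.42.0, its size factors in edgeR, scaling by protein-coding genes, no low-count filter, the replicate block and leaving out each library. Tables and plots used Python 3.11.15, pandas 2.3.3 and matplotlib 3.10.9.

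Named genes were the 10 hosts, DDX3X, up to 4 passing genes of each other list with the smallest p, snoRNAs inside a host at a mean of at least 1 CPM, the 5 genes most like the mean of the hosts, and genes within 5 kb of a host. SNORD79, below that level, was added after its values were seen. The members and lists were chosen with earlier results of these data known. Positions and promoters are RefSeq's for GRCh38.p14, with start windows used for 8 hosts, and snoRNAs were placed by position without strand.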

Additional observations from a re-analysis of the deposited data

Results flagged for a closer look

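The guide difference of SNHG12 RNA differed between days: it was larger at day 14 than at day 0 by 1.50 on the log2 scale (edgeR, interaction of guide and day, adjusted p = 0.000234), and without each of the 8 libraries in turn it lay between 1.26 and 1.70.

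The guide difference of SNORD12B in footprint libraries differed between days as well, by 2.37 at day 14 against day 0 (edgeR, adjusted p = 0.00422). Its values without each library lay between 2.00 and 2.87, and the call was lost without sgDDX3 replicate 2 of day 0 (2.46).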

How the results depend on the processing

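Scaling by DESeq2's size factors or by protein-coding genes changed no call named in the report. Without the low-count filter, SNHG5 RNA from day 0 to day 14 with sgDDX3 (0.19) and SNHG17 footprints at day 3 (0.42) lost their calls, and with DESeq2 SNHG17 (0.47) and ZFAS1 footprints from day 0 to day 3 with sgDDX3 (0.75) did. No result reversed under any alternative run. Of the counts of hosts that passed, those in footprints at day 3 went from 2 to 4 without the low-count filter, and those in footprints relative to RNA at day 14 from 1 to 2 without the filter and with DESeq2. Without the filter, RNA from day 0 to day 3 with sgGal4 went from 0 to 2, footprints from day 0 to day 14 with sgDDX3 from 1 to 2, and the footprint guide difference at day 14 against day 0 from 0 to 2. With DESeq2, footprints from day 0 to day 3 with sgDDX3 went from 2 to 1. The cause was not tested.

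Within each assay, deviations of the replicates correlated at −0.0759 to 0.246 between guides and between days. The highest value was that of sgGal4 footprints at day 0 and day 14. RNA and footprint libraries with the same replicate number were not compared, so pairing between the assays was not tested. With the replicate block, 2 hosts passed in footprints relative to RNA at day 14 and 2 in footprints from day 0 to day 14 with sgDDX3, each in place of 1, and ZBTB37 RNA at day 3 (−0.31) and SLC3A2 footprints at day 14 (−0.39) lost their calls.

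Leaving out each library in turn gave, for the guides in RNA, 0 to 2 hosts at day 3 and 1 to 5 at day 14. In footprints it gave 0 to 0 at day 0, 0 to 2 at day 3 and 0 to 3 at day 14, and relative to RNA 0 to 1, 1 to 2 and 0 to 2. From day 0 to day 14 in RNA it gave 0 to 1 with sgGal4 and 2 to 5 with sgDDX3. In footprints it gave 0 to 0 from day 0 to day 3 with sgGal4, 0 to 1 with sgDDX3, and 0 to 2 from day 0 to day 14 with sgDDX3. For the RNA guide difference at day 14 against day 0 it gave 1 to 3.

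Over all genes the low-count filter mattered in footprints: without it the calls went from 2 to 282 at day 0, from 753 to 1594 at day 3 and from 672 to 1221 at day 14, and with sgGal4 from 250 to 963 and from 488 to 1249 over time. RNA at day 0, and footprints relative to RNA at day 0, each went from 1 to 33. DESeq2 called 14 genes in footprints at day 0, the replicate block and coding scaling 1. The footprint guide difference against day 0 went from 24 to 643 (81 in DESeq2) at day 3 and from 21 to 384 (60 in DESeq2) at day 14. DESeq2 called 1011 in place of 1539 genes in footprints from day 0 to day 14 with sgDDX3. SNHG12 and ZFAS1 had as few as 76 and 71 footprint counts per library; the part of depth in their results was not tested.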
